A study of Mus musculus with 6 samples.

Results

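Alpha-crystallins and the enzyme-like crystallins were followed in the lens transcriptome of mouse embryos at stage E15.5. They were taken by gene symbol as the 6 genes Cryaa, Cryab, Cryz, Cryzl1, Cryl1 and Crym, and all 6 were found among the 41128 features listed for every library. The conditional knockout (cKO) lenses carried floxed β1-integrin alleles (beta1 Flox/Flox) and the MLR10 Cre transgene in mice of mixed strain, and each of their replicates was a pool of 30 lenses. The wild-type (WT) lenses came from C57Bl/6 mice in pools of 75, and their records repeat those of an earlier series. Each group held 3 biological replicates read by poly(A) RNA sequencing. The design asks which genes differ between lenses with the β1-integrin knockout and wild-type lenses. Strain background, the Cre transgene, the number of lenses pooled and the sequencing depth all differed together with the floxed genotype and cannot be told apart from it. In MLR10 mice, as background, Cre is driven by a modified promoter of the αA-crystallin gene, one of the genes described here, and is active in lens epithelium and fibers.

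Crystallins are the soluble proteins that fill lens fiber cells and give the lens its refractive power. The α-crystallins αA (Cryaa) and αB (Cryab) belong to the small heat shock proteins and hold partly unfolded proteins in solution. The enzyme-like crystallins are metabolic enzymes, or their relatives, that some mammals have taken up as bulk lens proteins. ζ-crystallin (Cryz) is an NADPH-dependent quinone reductase abundant in the guinea pig lens, and λ-crystallin (Cryl1) is an L-gulonate dehydrogenase abundant in the rabbit lens. μ-crystallin (Crym), a ketimine reductase that binds thyroid hormone, is abundant in the lens of some kangaroos. Cryzl1 encodes a protein with sequence similarity to ζ-crystallin. The mouse is not among the species that use these enzymes as bulk lens proteins.

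Depth ran from 20036554 to 28095318 reads in the cKO libraries and from 10023049 to 11531139 in those of WT. A single read (1 read) was worth 0.0356 to 0.0499 CPM (reads scaled to a common library total) in cKO and 0.0867 to 0.0998 CPM in WT. Itgb1, the gene of β1-integrin, averaged 258 ± 19.8 CPM in cKO and 425 ± 23.0 CPM in WT (SD, n = 3 each). It fell by 0.72 on the log2 scale (adjusted p = 1.63e-05 by limma), counted over the whole gene and not over the deleted part alone. Of 9 tested lens markers, Cdh1 was higher and Birc7, Mip and Foxe3 were lower in cKO, while Cryba1, Crybb1, Pax6 and Prox1 were among the 5 not called. Markers of cells around the lens were also detected. Of 10 tested endothelial markers 8 were higher in cKO, with a summed level of 209 to 246 CPM in cKO and 133 to 160 CPM in WT. All 7 tested macrophage markers were higher, at 19.9 to 28.2 CPM in cKO and 8.32 to 10.3 CPM in WT for the 9 listed. Among the 7, Tyrobp reached 1 CPM in the cKO libraries alone and was tested only through them. Of 5 tested markers of periocular mesenchyme 4 were higher, at 33.6 to 52.4 CPM in cKO and 17.3 to 20.9 CPM in WT for the 9 listed, with Foxc2 at 0 in all libraries. In pooled tissue, fewer cells of a type and less RNA per cell cannot be told apart.

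A gene was tested where 3 or more libraries reached 1 CPM. Across the 11941 such genes, 36.9% were called different between cKO and WT at an adjusted p under 0.05 (limma on log2(CPM + 1), Benjamini-Hochberg adjustment over all genes). Calls of higher genes made up 20.9% and calls of lower genes 15.9% of those tested, and the median log2 fold change was 0.03. Of the 6 crystallin genes, 4 passed the filter. Cryz and Cryzl1 were called higher in cKO, no gene was called lower, and Cryaa and Cryab were not called. Cryl1 and Crym lay below the filter. Their low values leave them without the main test, so the 2 calls describe the 4 genes that passed and not the group of 6. In that same set of 11941 genes, 26.9% had cKO values that all lay above all WT values, as Cryz and Cryzl1 did.

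Levels per length differed widely between the genes. In RPKM (CPM per kilobase of gene length), the order by group mean was Cryaa, Cryab, Cryz, Cryzl1, Cryl1 and Crym in both cKO and WT. Cryaa averaged 111800 ± 4478 RPKM in cKO and 118100 ± 4859 in WT (SD, n = 3 each, as for all means here). Cryab averaged 2902 ± 384 RPKM in cKO and 2838 ± 363 in WT. A wide gap separated the α-crystallins from the enzyme-like genes, since the mean of Cryab was 304 times that of Cryz in cKO and 360 times in WT. Cryz averaged 9.56 ± 0.655 RPKM in cKO and 7.87 ± 0.169 in WT. Cryzl1 averaged 2.94 ± 0.116 RPKM in cKO and 1.95 ± 0.244 in WT. Neighbours in this order had ranges that did not overlap within either group, except Cryl1 and Crym in cKO, where the lowest Cryl1 library (0.353 RPKM) lay under the highest Crym library (0.452 RPKM).

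**Figure D1:**
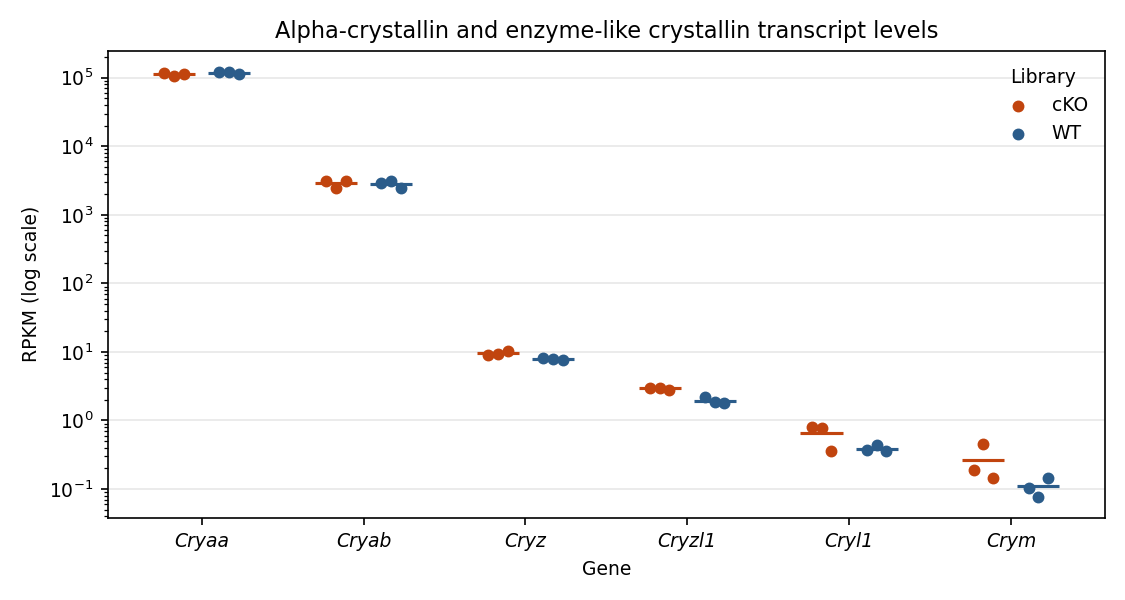
RPKM of the 6 crystallin genes on a log axis, with 1 point per library, cKO left of WT within each gene, and a bar at the mean of 3 libraries. Cryaa and Cryab lie far above the enzyme-like genes in both groups, and within cKO the ranges of Cryl1 and Crym overlap.

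αA-crystallin was the most abundant transcript in the lens. Cryaa (ENSMUSG00000024041) is a protein-coding gene at chr17:31677807-31681733 on the plus strand of GRCm38. It ranked first of all features, by CPM and by RPKM, in each of the 6 libraries, and took 12.7% to 13.7% of all counted reads in cKO and 13.3% to 14.4% in WT. The promoter is printed because it precedes the most abundant transcript and because a modified form of it drives the Cre transgene. The 250 bases before the RefSeq start (GRCm38.p6, chr17:31677681-31677930, plus strand) carry in capitals TGCTGAC, which is one arm of a Maf recognition element, and TATATA, which resembles a promoter box bound by the general transcription machinery.
Cryaa promoter: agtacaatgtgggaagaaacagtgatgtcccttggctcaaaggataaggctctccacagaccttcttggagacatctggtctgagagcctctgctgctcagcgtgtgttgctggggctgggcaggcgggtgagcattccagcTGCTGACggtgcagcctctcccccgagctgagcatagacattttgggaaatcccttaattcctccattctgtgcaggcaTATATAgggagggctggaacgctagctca
TGCTGAC lay 108 to 102 bases and TATATA 29 to 24 bases before the start. Searched on both strands, TGCTGAC occurred in 3.81% and TATATA in 5.25% of 32851 promoter windows of the same length. The looser Maf pattern TGACNNNGC overlapped TGCTGAC here and occurred in 10.2% of windows. These matches describe letters and show no binding.

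In cKO lenses Cryaa stood at 136900, 126600 and 134200 CPM, against 143000, 143800 and 133500 CPM in WT lenses. The groups overlapped, because the lowest WT library lay below 2 of the 3 cKO libraries. The log2 fold change was -0.08 (SE 0.086, 95% interval -0.26 to 0.10, adjusted p = 0.496 by limma). As a fold, the interval ran from 0.833 to 1.08, so the test does not show equal levels but bounds the difference within that range. At 1337705 to 3770041 reads per library, counting error was negligible beside a coefficient of variation between replicates of 4.01% in cKO and 4.11% in WT. Of the 50-base words of Cryaa transcripts, 8.37% also occurred in the antisense gene AC090881.2, which the files do not list. Strand was not marked by the library kit, and a read of either gene cannot be told apart from the other's.

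αB-crystallin, which is also made in heart and muscle, did not differ detectably between the groups. Cryab (ENSMUSG00000032060; chr9:50751325-50756636, plus strand) had 3724, 2914 and 3678 CPM in cKO lenses, against 3478, 3724 and 2886 CPM in WT lenses. Each group had 1 library well below its other 2, and the ranges nearly coincided. The log2 fold change was 0.03 (SE 0.11, 95% interval -0.21 to 0.27, adjusted p = 0.851 by limma), and its sign turned when single libraries were left out (-0.07 to 0.15). By RPKM it ranked 17 to 18 among all features in cKO and 14 to 15 in WT. The spread between replicates, 13.2% in cKO and 12.8% in WT, exceeded that of Cryaa in both groups.

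The balance of the α-crystallins was also compared within libraries. The ratio of Cryaa to Cryab RPKM was 36.7, 43.4 and 36.4 in cKO and 41.1, 38.6 and 46.2 in WT (exact permutation p = 0.4, two-sided, where 3 against 3 libraries cannot give less than 0.1). The α-crystallins made up 40.2%, 43.5% and 42.6% of the reads of the 16 α-, β- and γ-crystallins in cKO and 42.1%, 43.2% and 43.2% in WT (exact permutation p = 0.7, two-sided). Groups overlapped in both measures. cKO replicate 2 had the lowest Cryab level and the highest ratio among the cKO libraries. Among the 14 β- and γ-crystallins, 1 gene was higher, 1 was lower and 12 were not called, with a median log2 fold change of -0.08. Over all genes tested, 20.9% were called higher and 15.9% lower, with a median of 0.03. The higher crystallin gene was Crygb (0.45, adjusted p = 0.00531 by limma), which shared 29.4% of its words with other transcripts. The lower crystallin gene was Cryba2 (-0.39, adjusted p = 0.00557 by limma). The number of these crystallins called lower ran from 1 to 4 under the 18 alternative settings.

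**Figure D2:**
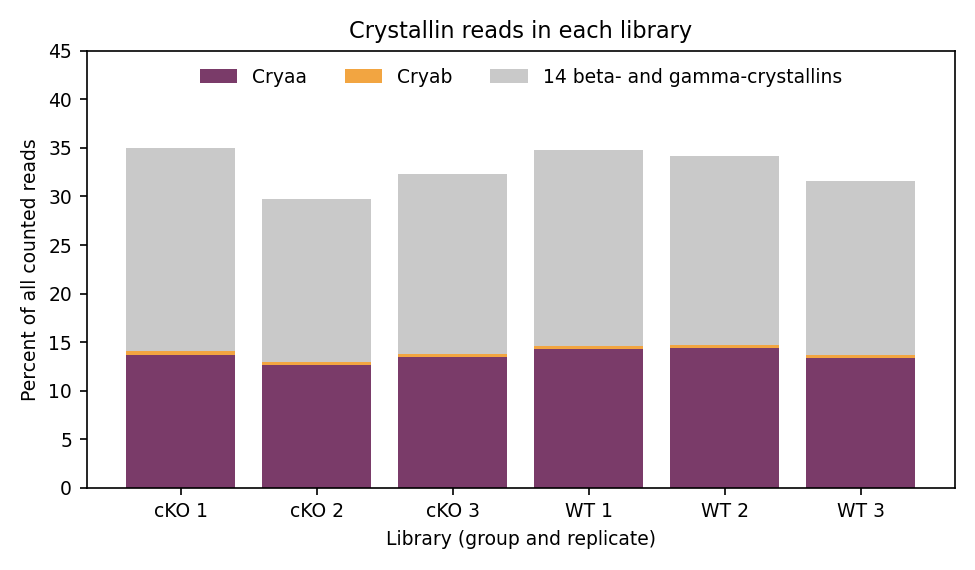
Percent of all counted reads taken by Cryaa, by Cryab and by the 14 β- and γ-crystallins in each library, with the cKO libraries left of the WT libraries. Cryaa alone takes 12.7% to 14.4% of reads, Cryab 0.289% to 0.372%, and the totals of the groups overlap.

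ζ-crystallin transcripts were modestly higher in cKO. Cryz (ENSMUSG00000028199; chr3:154596711-154623182, plus strand) had 26.7, 27.9 and 30.5 CPM in cKO lenses, against 23.85, 23.41 and 22.85 CPM in WT lenses. Every cKO library lay above every WT library, from 229 to 857 reads each. The log2 fold change was 0.27 (SE 0.085, 95% interval 0.08 to 0.45, a fold of 1.20, adjusted p = 0.0255 by limma), with the direction seen in 3 of 3 cKO libraries. The call was lost without cKO replicate 3 (0.22, adjusted p = 0.147), WT replicate 2 (0.27, adjusted p = 0.0685) or WT replicate 3 (0.25, adjusted p = 0.0626) by limma, and with DESeq2 (0.25, adjusted p = 0.0753). Among all genes called higher, 2269 had a log2 fold change at least as large.

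Transcripts of the ζ-crystallin-like gene Cryzl1 rose more clearly. Cryzl1 (ENSMUSG00000058240; chr16:91689322-91728975, minus strand) had 12.98, 13.16 and 12.21 CPM in cKO lenses, against 9.713, 7.977 and 7.782 CPM in WT lenses. The groups did not overlap, and the cKO libraries lay close together. The log2 fold change was 0.54 (SE 0.11, 95% interval 0.30 to 0.78, a fold of 1.46, adjusted p = 0.00215 by limma). The gene kept its call under all 18 alternative settings, at 0.49 to 0.63 with adjusted p-values of 0.000126 to 0.0128. Its log2 fold change lay at percentile 92.6 of all genes tested, and 870 genes called higher had one at least as large. The endothelial, macrophage and mesenchymal markers above were higher in the same libraries, and their part in the levels of Cryz and Cryzl1 was not tested.

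**Figure D3:**
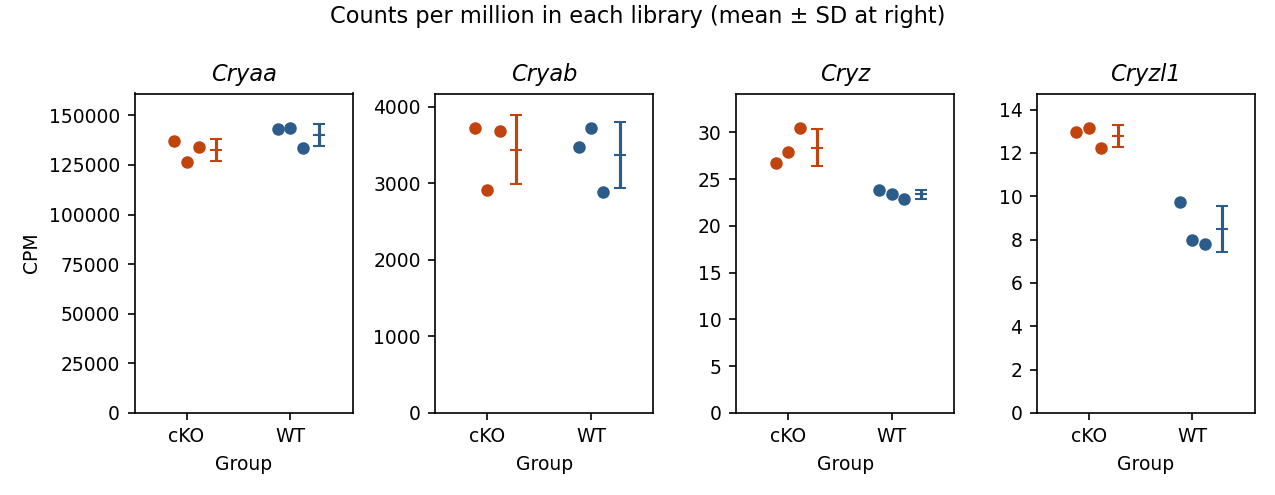
CPM of the 4 tested crystallin genes in each library, cKO left of WT, each axis starting at 0, with the mean ± SD of 3 libraries beside the points. The groups overlap for Cryaa and Cryab, and all cKO points lie above all WT points for Cryz and Cryzl1.

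The promoters of the called genes are shown to set them beside that of Cryaa. Cryz has a pair of RefSeq start sites, of which the first one is printed (chr3:154596461-154596710, plus strand), and Cryzl1 has a single window (chr16:91728803-91729052, minus strand, printed 5′ to 3′). Capitals mark CCAAT on either strand, TGACNNNGC and GGGCGG, and only CCAAT was found, once and in reverse.
Cryz promoter: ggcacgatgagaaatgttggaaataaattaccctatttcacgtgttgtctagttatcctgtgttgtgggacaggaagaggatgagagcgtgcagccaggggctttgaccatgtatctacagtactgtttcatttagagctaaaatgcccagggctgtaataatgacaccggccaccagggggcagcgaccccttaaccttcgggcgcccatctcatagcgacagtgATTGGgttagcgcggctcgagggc
Cryzl1 promoter: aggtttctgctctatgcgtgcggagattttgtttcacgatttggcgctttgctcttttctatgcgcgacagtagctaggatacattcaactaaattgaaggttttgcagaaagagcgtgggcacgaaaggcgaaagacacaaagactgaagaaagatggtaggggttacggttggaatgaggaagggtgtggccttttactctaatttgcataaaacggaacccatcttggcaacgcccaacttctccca
The reverse CCAAT of Cryz lay 24 to 20 bases before the start, and CCAAT occurred in 33.8% of all windows. The Cryzl1 window held none of the 7 patterns searched. Besides those already named, these were TATAAA, found in 12.4% of windows, the heat shock element core GAANNTTC, found in 6.69%, and the Sp1-type box GGGCGG, found in 32.7%. The printed windows of Cryz and Cryzl1 thus shared none of these patterns with that of Cryaa. Each pattern of the Cryaa window occurred in at most 10.2% of all windows, so this absence does not set Cryz and Cryzl1 apart. Windows were matched for 4 of the 6 genes (Cryaa, Cryz, Cryzl1 and Cryl1).

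Of the tested crystallin genes, Cryab, Cryz and Cryzl1 lie head to head with another gene. Cryab overlaps Hspb2, a small heat shock protein gene of the opposite strand, over 252 exon bases. Hspb2 averaged 15.52 ± 0.634 CPM in cKO and 15.57 ± 1.02 CPM in WT and was not called (-0.00, adjusted p = 0.984 by limma), and 13.3% of the words of Cryab were shared with it. Cryz overlaps Tyw3, which encodes a tRNA-modifying enzyme, also over 252 exon bases. Tyw3 had 5.81 ± 0.192 CPM in cKO and 5.86 ± 0.787 CPM in WT, with a log2 fold change of -0.00 (adjusted p = 0.980 by limma). The ratio of Cryz to Tyw3 RPKM was 7.10, 6.98 and 7.67 in cKO and 6.93, 6.01 and 5.08 in WT, so the groups did not overlap, although the highest WT ratio lay close to the lowest cKO ratio.

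Cryzl1 starts 306 bases from Itsn1, which encodes the endocytic scaffold intersectin and runs the other way. Itsn1 fell to 29.4 ± 5.44 CPM in cKO, against 42.5 ± 3.92 CPM in WT (log2 fold change -0.53, SE 0.12, adjusted p = 0.00503 by limma), while Cryzl1 rose. The ratio of Cryzl1 to Itsn1 RPKM was 2.89, 2.03 and 2.02 in cKO and 1.32, 0.937 and 0.890 in WT. Every cKO ratio lay above every WT ratio, which follows from the separation of each gene in opposite directions and adds no evidence of its own. On the other side, 552 bases beyond the end of Cryzl1, Donson, which encodes a DNA replication factor, had 7.69 ± 0.464 CPM in cKO and 9.30 ± 0.885 CPM in WT (-0.24, adjusted p = 0.110 by limma). The antisense gene Gm10785 shares 444 exon bases and 7.24% of words with Cryzl1 and was itself listed at 0.0119 CPM in cKO and 0.0998 CPM in WT on average. Around Cryz, the nearest tested genes Acadm (0.45, adjusted p = 0.00150) and Fpgt (0.41, adjusted p = 0.0104) were higher in cKO by limma, at 652079 and 461736 bases. Around Cryaa, U2af1 (0.25, adjusted p = 0.0315) and Sik1 (0.49, adjusted p = 0.00130) were higher by limma at 18915 and 162517 bases. U2af1 shares 21.7% of its words, and its call was lost under 7 of 18 alternative settings, that of Fpgt under 1. Around Cryab, Cryl1 and Crym none of the nearest tested genes was called, and over all genes 20.9% were called higher.

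**Figure D4:**
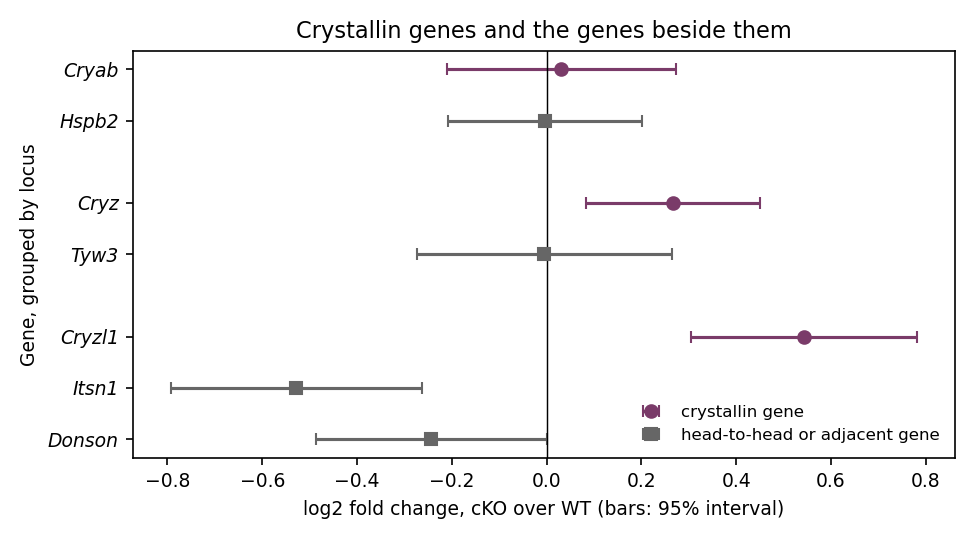
Log2 fold change of cKO over WT with its 95% interval for 3 crystallin genes (circles) and the head-to-head or adjacent genes (squares), grouped by locus. Cryzl1 lies right of 0 at 0.54 and Itsn1 left of 0 at -0.53, while Cryab, Hspb2 and Tyw3 lie near 0.

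λ-crystallin and μ-crystallin transcripts were barely detected. Cryl1 (ENSMUSG00000021947; chr14:57274993-57398529, minus strand) had 1.148, 1.088 and 0.4983 CPM in cKO lenses, from 23, 22 and 14 reads. In WT lenses it had 0.5203, 0.6136 and 0.4989 CPM, from 6, 7 and 5 reads. cKO replicates 1 and 2 lay above all WT libraries and cKO replicate 3 just below them. Summed over libraries, Cryl1 had 0.863 CPM in cKO (59 reads, exact 95% Poisson interval 0.657 to 1.11) and 0.546 CPM in WT (18 reads, 0.324 to 0.863). These intervals cover counting error only, and they overlapped. The coefficient of variation between replicates was 39.4% in cKO and 11.2% in WT. With no filter, limma gave a difference of 0.29 (adjusted p = 0.229) and edgeR one of 0.66 (adjusted p = 0.282).

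Crym (ENSMUSG00000030905; chr7:120186380-120202111, minus strand) had 0.6488, 1.534 and 0.4983 CPM in cKO lenses, from 13, 31 and 14 reads. In WT lenses it had 0.3469, 0.263 and 0.4989 CPM, from 4, 3 and 5 reads. The groups overlapped, since cKO replicate 3 lay just below WT replicate 3, and cKO replicate 2 held more reads than the other cKO libraries together. Summed over libraries, Crym had 0.849 CPM in cKO (58 reads, exact 95% Poisson interval 0.644 to 1.10) and 0.364 CPM in WT (12 reads, 0.188 to 0.636). With no filter, limma gave a difference of 0.43 that was not called (adjusted p = 0.132). edgeR with no filter, added after the data were seen, gave a log2 fold change of 1.20 (adjusted p = 0.0447). Without cKO replicate 2 that value was 0.63 (adjusted p = 0.477 by edgeR), without WT replicate 1 it was 1.17 (adjusted p = 0.110) and without WT replicate 2 it was 1.01 (adjusted p = 0.184). Without cKO replicate 2, the summed level in cKO was 0.561 CPM (0.370 to 0.816), and its interval overlapped that of WT.

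The relatives of the α-crystallins were examined next. Of the 8 other small heat shock protein genes, 5 were tested, 2 were higher in cKO and none was lower. Over all genes 20.9% were called higher and 15.9% lower, and 5 tested genes are too few to set the count apart from that. The median log2 fold change was 0.35, against 0.03 over all genes. Hspb3 had 23.76, 20.53 and 24.06 CPM in cKO and 17.52, 18.15 and 14.37 CPM in WT (0.43, adjusted p = 0.00704 by limma). Hspb6 had 11.68, 10.59 and 10.68 CPM in cKO and 9.193, 6.224 and 8.081 CPM in WT (0.45, adjusted p = 0.0153 by limma), a call lost without cKO replicate 1 or WT replicate 2. Both genes are best known from muscle. Of 6 skeletal muscle markers only Des was tested, and it was higher in cKO. The 6 summed to 2.54 to 3.96 CPM in cKO and 1.93 to 3.19 CPM in WT, and Des made up most of each cKO sum. Below the filter, Acta1 averaged 0.02835 CPM in cKO and 0.4153 CPM in WT, and its groups did not overlap. Myh3, Myog and Ckm were also lower in cKO on average, and Tnnt1 was higher, each with overlapping groups and few reads. The part of muscle cells in the levels of Hspb3 and Hspb6 was not tested. Hspb8, a partner of Bag3 in clearing misfolded proteins, was not called (0.35, adjusted p = 0.117 by limma). Hspb1, the gene of Hsp25, shares 50.1% of its words with other transcripts and was not called (0.08, adjusted p = 0.883 by limma). Hspb7, Hspb9 and Odf1 lay below the filter.

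Transcription factors and cofactors known to act on α-crystallin genes were called about as often as all genes. Of 27 such genes 25 were tested, with 5 higher and 4 lower in cKO and a median log2 fold change of -0.02, against 20.9% higher and 15.9% lower calls over all genes. Maf, the c-Maf factor that activates crystallin genes in fiber cells, had 1460, 1436 and 1476 CPM in cKO and 992.9, 1087 and 1011 CPM in WT (0.50, adjusted p = 0.000134 by limma). Creb1 (0.33), Hsf2 (0.44) and Rarb (0.40, with 34.1% of its words shared) also rose. Smarca4, the ATPase of a chromatin remodelling complex, fell by 0.41 (adjusted p = 0.00220 by limma), and Gata3 fell by 0.41 (adjusted p = 0.00325 by limma). Hsf1 (-0.32) and Foxe3 (-0.37) were the other genes called lower, and Foxe3, a factor of the lens epithelium, lost its call under 6 of 18 alternative settings. Pax6 (-0.02, adjusted p = 0.894), Prox1 (-0.05, adjusted p = 0.633) and Hsf4 (-0.13, adjusted p = 0.176), the lens heat shock factor, were not called by limma. Sox1 and Sox2 were listed at 0 in all 6 libraries. Whether a gene listed at 0 in all libraries lacked transcripts or was missed in the counting was not tested.

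Pathway partners of the enzyme-like crystallins were called about as often as all genes. Of 12 tested quinone and enone reductases related to ζ-crystallin or of like activity, 4 were higher and 1 was lower in cKO, near the 36.9% called over all genes, with a median log2 fold change of 0.00. Mecr, a reductase of mitochondrial fatty acid synthesis, rose by 0.41 (adjusted p = 0.00110 by limma). Ptgr2 rose by 0.32 (adjusted p = 0.00832 by limma) and Sord by 0.35 (adjusted p = 0.0104 by limma), with 30.3% and 31.3% of their words shared with other transcripts. Zadh2 (0.31) was the other higher gene, with its call lost under 8 of 18 alternative settings, and Tecr fell by 0.28 (adjusted p = 0.00651 by limma). In the glucuronate and xylulose pathway of λ-crystallin, 2 of 8 tested genes were higher and 1 was lower, also near that share, with a median of 0.02. Ugp2, which makes UDP-glucose, had 77.8, 74.4 and 71.2 CPM in cKO and 46.4, 49.0 and 43.8 CPM in WT (0.67, adjusted p = 3.36e-05 by limma). Sord, which belongs to both lists, was the other, and Akr1b3, aldose reductase, fell by 0.73 at levels under 3 CPM. Akr1b3 reached 1 CPM in the WT libraries alone, so it passed the filter only through the group where it was higher.

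Lists tied to μ-crystallin held few calls. Of 8 tested genes of thyroid hormone handling none was called higher by limma. The receptors Thra (-0.22, adjusted p = 0.114) and Thrb (-0.15, adjusted p = 0.394) were not called by limma, and Dio1 was listed at 0 in all libraries. Of 11 tested genes of lysine and ketimine metabolism none was higher and 2 were lower. Gcdh, glutaryl-CoA dehydrogenase, had 4.44, 7.22 and 6.41 CPM in cKO and 10.8, 11.4 and 9.38 CPM in WT (-0.73, adjusted p = 0.00209 by limma). Pycrl, a pyrroline carboxylate reductase gene, fell by 0.50 (adjusted p = 0.00122 by limma).

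In contrast to Cryz and Cryzl1, most mouse genes related to the enzyme crystallins of other animals were lower in cKO. The list holds 16 genes: counterparts of known enzyme crystallins, their family members, and Mif and Uchl1. All 16 were tested, 12 were lower and none was higher, with a median log2 fold change of -0.47, against 15.9% lower calls and a median of 0.03 over all genes. Lower calls numbered 11 to 12 under the 18 alternative settings. The 12 include Akr1b3, which reached 1 CPM in the WT libraries alone and passed the filter only through them. Asl, whose bird counterpart is δ-crystallin, had 21.3, 23.3 and 20.0 CPM in cKO and 30.6, 28.1 and 31.6 CPM in WT (-0.47, adjusted p = 0.00157 by limma). Aldh1a1, whose counterpart is η-crystallin of elephant shrews, had 831.1, 993.4 and 932.1 CPM in cKO and 1222, 1265 and 1240 CPM in WT (-0.44, adjusted p = 0.000788 by limma). Neither gene shared more than 3.06% of its words with others.

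Eno1, the enolase that serves as τ-crystallin in several vertebrates, fell to 190 CPM in cKO on average, against 284 CPM in WT (-0.58, adjusted p = 0.000222 by limma), with 26.0% of its words shared. Ldha fell by 0.74 (adjusted p = 1.82e-05 by limma), with 9.26% of words shared. Ldhb, the counterpart of ε-crystallin of ducks, was not called (0.19, adjusted p = 0.376 by limma) at 3.29 to 5.29 CPM over all libraries. Mif fell by 0.92 (adjusted p = 5.28e-07 by limma) and Uchl1 by 0.64 (adjusted p = 0.000261 by limma), with 50.9% and 12.6% of words shared. Gapdh, the counterpart of a gecko crystallin, fell by 1.16 (adjusted p = 0.000733 by limma), at 14.1 ± 4.45 CPM in cKO and 31.6 ± 1.70 CPM in WT. It shares words with 223 other genes. How reads with several matches were counted is not known, so the levels of genes with many shared words are uncertain. Rplp0, a ribosomal protein gene used as a general control, also fell (-0.59, adjusted p = 2.83e-05 by limma). It shares 33.1% of its words, so its level is uncertain too. Actb, with 9.12% of words shared, was not called (0.06, adjusted p = 0.585 by limma).

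**Figure D5:**
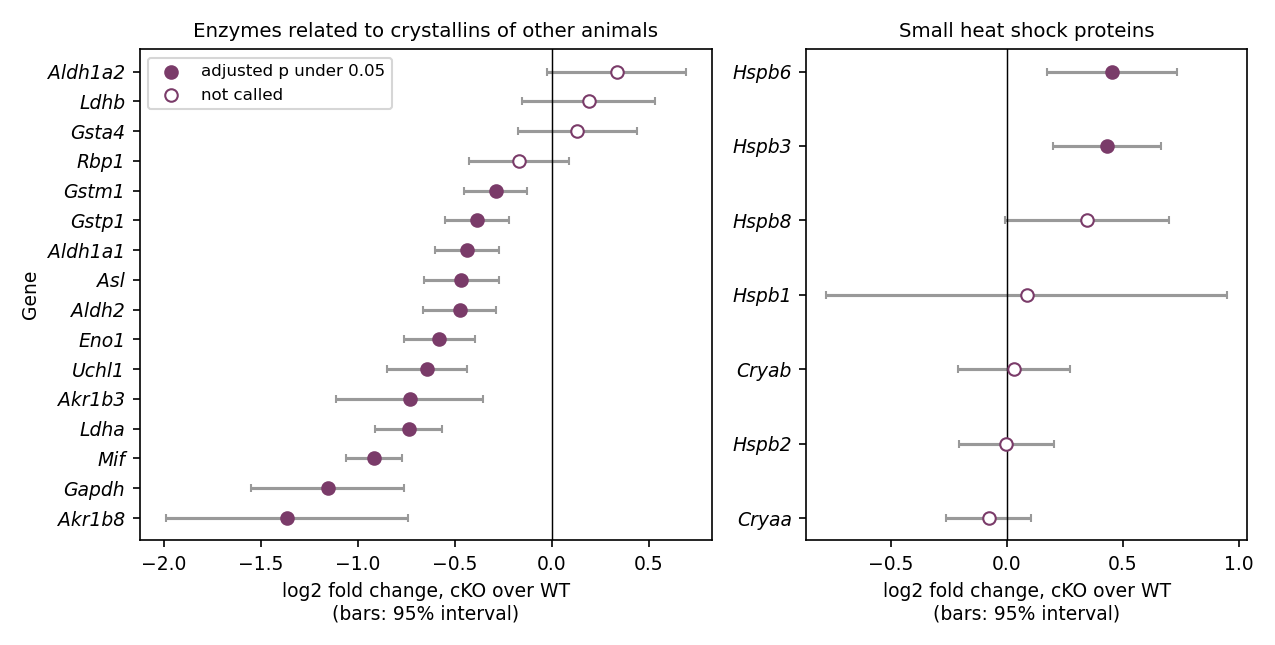
Log2 fold change of cKO over WT with its 95% interval for the 16 genes related to enzyme crystallins of other animals (left) and for tested small heat shock proteins with Cryaa and Cryab (right); filled points passed the test. On the left 12 genes lie below 0 and passed, and on the right Hspb3 and Hspb6 alone passed.

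The genes whose levels followed each crystallin gene most closely over the 6 libraries were listed by Pearson's r of log2(CPM + 1) among 7814 or 7815 genes averaging 10 CPM or more, as a description without a test. For Cryzl1 they were Rpp30, Rpl23 and Aven (r = 1.00 each), all higher in cKO, and 845 genes exceeded 0.9. For Cryz they were Pdhb, Pkd1l1 and Armc1 (r = 0.99 to 1.00), and 495 genes exceeded 0.9. The points share the group difference, which any gene that separates the groups also carries. For Cryaa, whose groups overlapped, 23 genes exceeded 0.9, led by Ggact and Tmem106c (r = 0.98 each) and Hba-a2 (r = 0.96). Hba-a2 shares 89.3% of its words with Hba-a1, which was called higher in cKO (0.81, adjusted p = 0.0136 by limma), whereas Hba-a2 was called lower (-0.50, adjusted p = 0.0452 by limma), so the level of either is uncertain. Of 5 tested erythroid markers 2 were higher and 1 was lower, with a summed level of 344 to 615 CPM in cKO and 250 to 282 CPM in WT, and the part of erythroid RNA in these correlations was not tested. For Cryab they numbered 12, led by Gyg (r = 0.97), the γ-crystallin gene Cryge (r = 0.97) and Zfp622 (r = 0.96). The nearest genes of Cryl1 (Vdac2, Ing3 and Zdhhc17) and of Crym (Nucks1, Pip5k1b and Osbpl9) rest on 3 to 31 reads per library of the crystallin gene.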

How the data were processed

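Per the labels' protocols, column-purified RNA was poly(A)-selected, made into TruSeq v2 libraries and read single-end over 50 bases. The deposited files hold CPM and RPKM values, which the authors computed per the file headers, and the submitters' processing notes name edgeR and GRCm38. The aligner, annotation and treatment of reads with several matches are not given in the sources used. Every CPM was a whole multiple of 1 read within 0.02 reads (100% of values), so reads were recovered. Coordinates come from GENCODE M21 (GRCm38) and promoters from RefSeq (GRCm38.p6).

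The test was limma-trend 3.58.1 (R 4.3.3) on log2(CPM + 1), which understates changes of low genes, with robust moderation and group alone, on genes reaching 1 CPM in 3 or more libraries. A call needed an adjusted p (Benjamini-Hochberg) below 0.05. Alternatives included RLE and TMM scaling, other filters, a pseudocount of 0.1, limma-voom, DESeq2 1.42.0 and edgeR 4.0.16 on recovered reads, thinning to 10023049 reads and leaving out each library. edgeR with no filter was added after seeing the data. Shared words are 50-base words of a gene's transcripts, on either strand, found in transcripts of other genes.

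The members and gene lists were chosen with earlier results of these data known. Named genes are the members, Itgb1, the 4 tested genes per list with the lowest adjusted p, all small heat shock proteins, neighbours, the 3 most alike genes, Rplp0, Actb and Gapdh. Some of these are not reported here. Other list members are examples chosen after their values were seen. P-values measure the spread between pools of lenses.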

Additional observations from a re-analysis of the deposited data

How the results depend on the processing

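Cryzl1 stayed called higher and Cryaa stayed uncalled (-0.11 to -0.05) under all 18 alternatives. Cryz lost its call with DESeq2 (0.25, adjusted p = 0.0753), and its log2 fold change ran from 0.22 to 0.31 when single libraries were left out. The count of crystallin genes called higher was then 1 with DESeq2, 1 to 2 with a library left out and 3 with edgeR and no filter. Cryab, not called in any setting, ran from -0.07 to 0.15 with a library left out. With a pseudocount of 0.1 the difference was 0.58 for Cryl1 and 0.97 for Crym, since a smaller pseudocount shrinks low genes less, and edgeR with no filter gave 1.20 for Crym (0.63 to 1.52 with a library left out). Leaving out 1 library at a time gave 1714 to 2400 genes higher and 1322 to 1922 lower. The β- and γ-crystallins called lower, 1 in the main test, numbered 4 without cKO replicate 1 and with the replicate block, and 3 with DESeq2; the cause was not tested. Thyroid hormone genes called higher numbered 1 with no filter, by limma and by edgeR. Quinone reductases called higher numbered 2 without cKO replicate 3. The lower call of Akr1b3 had no test without any 1 WT library or with a mean of at least 5 CPM, where it fell under the filter. Scalings moved the median of all genes to -0.00 (RLE) and 0.00 (TMM). Replicate numbers were not taken to pair the samples, and these values do not settle whether they do. Deviations of same-numbered libraries correlated at 0.327, -0.034 and 0.147, and those of differently numbered libraries at -0.314 to 0.207. With the replicate block, 2916 genes were called higher and 2249 lower, and the crystallin genes kept their calls (Cryz adjusted p = 0.0188, Cryzl1 adjusted p = 0.000187, both by limma). Cryl1 and Crym rest on 3 to 7 reads in each WT library (of 10023049 to 11531139) and 13 to 31 in each cKO library. Without cKO replicate 3, edgeR with no filter gave 1.00 for Cryl1 (adjusted p = 0.0940; 0.42 to 1.00 with a library left out).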
